A study of Mus musculus with 6 samples.

Results

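Peroxisomes are small organelles that shorten very long and branched fatty acids, make ether lipids and break down hydrogen peroxide. The genes described here encode the peroxins that build the organelle, the ABCD transporters of its membrane, and its enzymes of beta-oxidation, alpha-oxidation and ether lipid synthesis, with further membrane proteins, matrix enzymes and proteases. They were taken by name from a list of 45 symbols. Of these, 44 had a row among the 22695 rows of the count table, and Mpv17 was not analysed here. The gene ontology terms in the deposited table place 43 of the 44 genes in the peroxisome (97.7%, against 0.648% of all rows), and the exception, Pex2, is a peroxin. Some of the listed proteins also work elsewhere: Abcd4 is known from the lysosome, and Ech1 and Amacr also act in mitochondria.

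The RNA came from inguinal white adipose tissue, the subcutaneous fat of the groin, of mice aged 20 months. There were 3 libraries from GSNOR KO mice, labelled C57BL/6J-GSNOR KO, and 3 from wild-type mice, labelled C57BL/6J-WT. GSNOR is S-nitrosoglutathione reductase, encoded by Adh5, and the series asks what lies behind the enhanced lipid metabolism that its text ascribes to aged GSNOR KO mice. The knockout allele, the sex of the mice and whether each library is a separate animal were not stated in the labels used here, so p-values measure the spread between these libraries, which may be technical.

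Peroxisomal beta-oxidation works in a cycle: an acyl-CoA oxidase (Acox) introduces a double bond and makes hydrogen peroxide, a bifunctional enzyme (Ehhadh or Hsd17b4) hydrates and oxidises the product, and a thiolase (Acaa1a, Acaa1b or Scp2) cuts off acetyl-CoA or propionyl-CoA. The enzymes are made in the cytosol and carried into the organelle by the receptors Pex5 and Pex7. In fat the nuclear receptors PPAR alpha and PPAR gamma are known to drive genes of this organelle, and thermogenic adipocytes are known to hold many peroxisomes.

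Library totals ran from 21223848 to 23961574 counts in GSNOR KO and from 20277594 to 22793152 counts in WT. CPM are counts divided by library size, here scaled by TMM factors, which correct for differences in library composition, and are listed for replicates 1, 2 and 3 of each group. On this scale 3 counts corresponded to 0.131 to 0.138 CPM. The targeted gene Adh5 had 4, 3.81 and 5.08 CPM in GSNOR KO libraries, against 76.9, 66.4 and 58.8 CPM in WT libraries, and was low in every library labelled GSNOR KO (log2 fold change -3.97, SE 0.171, edgeR adjusted p = 0.000135). GSNOR KO was compared with WT by edgeR's quasi-likelihood test over 13694 genes with Benjamini-Hochberg adjustment, and a gene counts as called, risen or fallen at an adjusted p under 0.05. Every fold change is log2 of GSNOR KO over WT. The 12 marker genes of mature adipocytes that were looked up summed to 17345 to 19524 CPM in GSNOR KO and to 15401 to 18341 CPM in WT, with 0 of them absent in any library. Of these 12 genes 1, Pnpla2, rose and 11 were not called (8.33% called, where 7.04% of all genes were).

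Of the 44 genes 42 were tested. In the edgeR comparison 8 rose in GSNOR KO, 1 fell and 33 were not called, a share of 21.4% called, where 7.04% of all 13694 genes were called (3.9% higher and 3.14% lower). The list was chosen with earlier results of these data known, which limits what these shares can show. The genes that rose were Ehhadh, Pex6, Abcd4, Pex5, Tysnd1, Acaa1a, Pex16 and Decr2, and the gene that fell was Abcd2. When libraries were scaled by their totals alone, the split over all genes was 314 higher and 406 lower in place of 534 and 430, and among the peroxisomal genes it was 8 higher and 0 lower. The median log2 fold change was 0.25 over the 42 genes, of which 31 lay above 0, and -0.04 over all tested genes, of which 45.5% lay above 0. All GSNOR KO libraries lay above all WT libraries in 19 of the 42 genes, where this held for 17.3% of the genes tested, and below them in 8, where it held for 19.5%. DESeq2 called 12 of the 42 genes, adding Pxmp4, Pex14 and Abcd3, where it called 15.4% of its genes, and limma voom called the same 9 as edgeR, where it called 5.37%. The authors' deposited table, from their own DESeq comparison, has an adjusted p under 0.05 for 6 of these 42 genes and for 2.55% of its 13014 genes with a value. For Acaa1a, Pex16 and Decr2, which rose by edgeR, it gives a DESeq adjusted p of 0.0975, 0.0894 and 0.0919, above the threshold. For the called genes, which a test on these counts picked, a lack of overlap between the groups is no separate evidence. In tissue samples fewer cells of a type and less RNA per cell cannot be told apart.

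Leaving out single libraries changed the number of calls widely. No peroxisomal gene was called by edgeR without GSNOR KO replicate 1, 2 or 3, or without WT replicate 2, where the share of all genes called was 0.0357%, 0.0216%, 0.0216% and 0.0935%. In those comparisons 18, 15, 13 and 15 of the 42 genes had an unadjusted p under 0.05. With all libraries 16 of the 42 did, where 28.6% of all genes did. The share of all genes with an unadjusted p under 0.05 was not computed for those comparisons, so their counts cannot be set against it. Without WT replicate 3 the same 8 genes rose, where 6.58% of all genes were called. Without WT replicate 1, 16 rose and 1, Far1, fell, where 20.5% of all genes were called. The median over the 42 genes was between 0.20, without GSNOR KO replicate 2, and 0.29, without WT replicate 1.

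**Figure D1:**
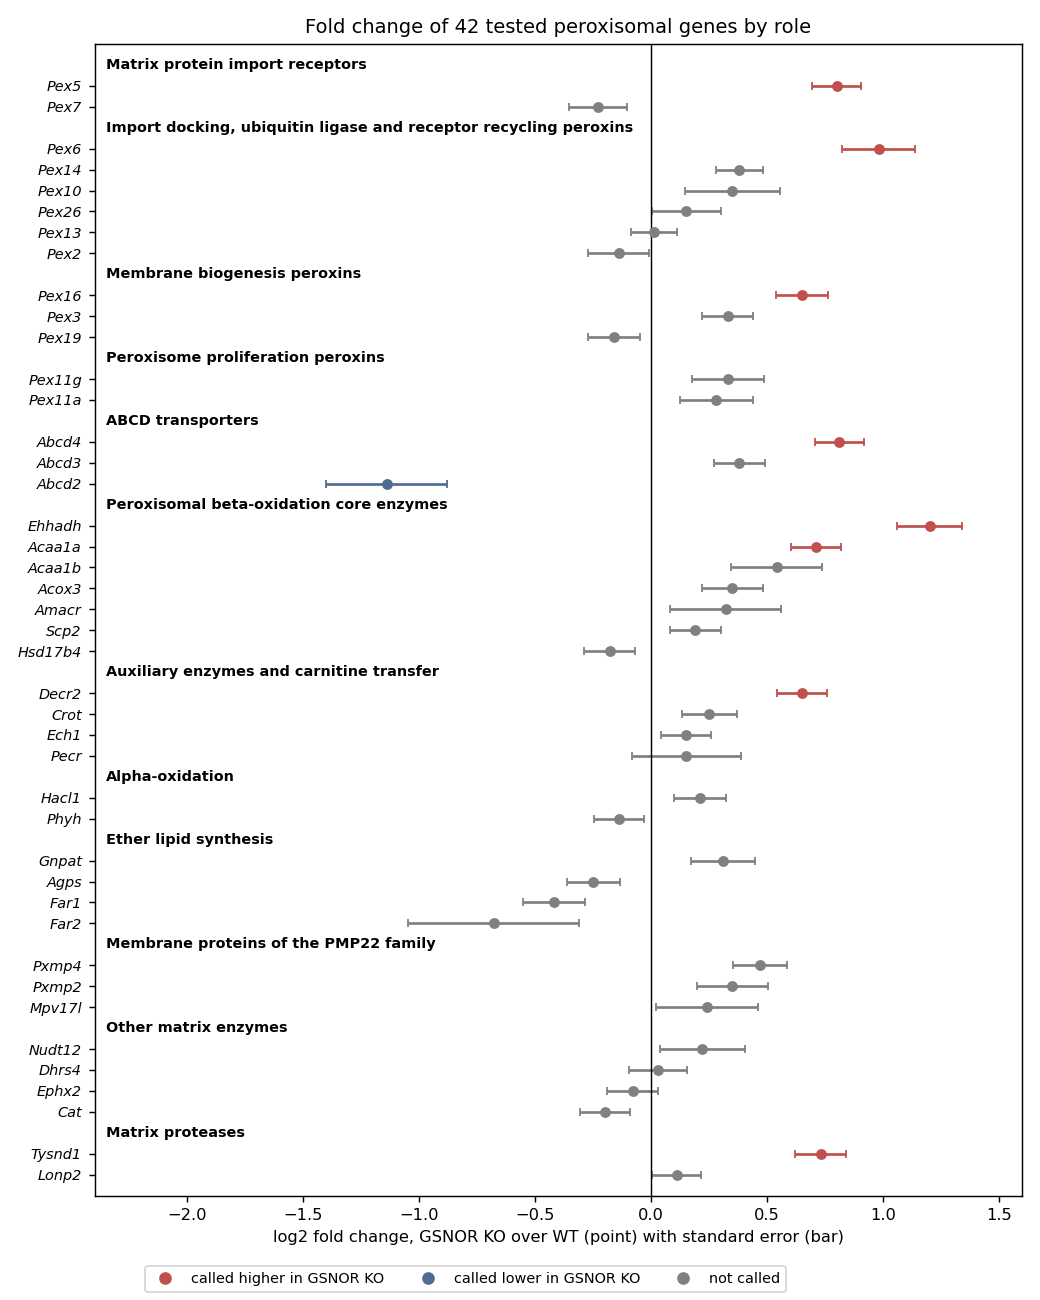
Log2 fold change of GSNOR KO over WT (horizontal axis) for 42 tested peroxisomal genes grouped by role, with points for the edgeR estimate and bars for its standard error. The 8 genes called higher (red) lie between 0.65 and 1.20 and the gene called lower, Abcd2 (blue), lies at -1.14, while most others (grey) lie within 0.5 of 0.

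Levels were compared between genes in FPKM, which the authors scaled to transcript length. The most abundant was Ech1, an auxiliary enzyme for unsaturated fatty acids, with a median of 1098 FPKM over the 6 libraries. It was followed by Ephx2, the soluble epoxide hydrolase, at 528 FPKM, Scp2, a thiolase and sterol carrier, at 446 FPKM, Cat, the catalase that removes hydrogen peroxide, at 195 FPKM, and Phyh, of alpha-oxidation, at 166 FPKM. Of these 5 most abundant genes 0 were called, whether by edgeR, by DESeq2 or by limma voom, and 0 had an unadjusted p under 0.05. Over all tested genes edgeR called 7.04%, and 28.6% had an unadjusted p under 0.05, so 0 of 5 does not set these genes apart. The called genes came from the middle of the range, from Pex16 at 76.9 FPKM and Acaa1a at 73 FPKM to Abcd4 at 12.4 FPKM. The GSNOR KO and WT libraries did not overlap in FPKM for any of the 9 called genes. These genes were picked by a test on the same reads, so this is no separate evidence. Below 1 FPKM lay Mpv17l, Far2, Acox2 and Pipox.

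**Figure D2:**
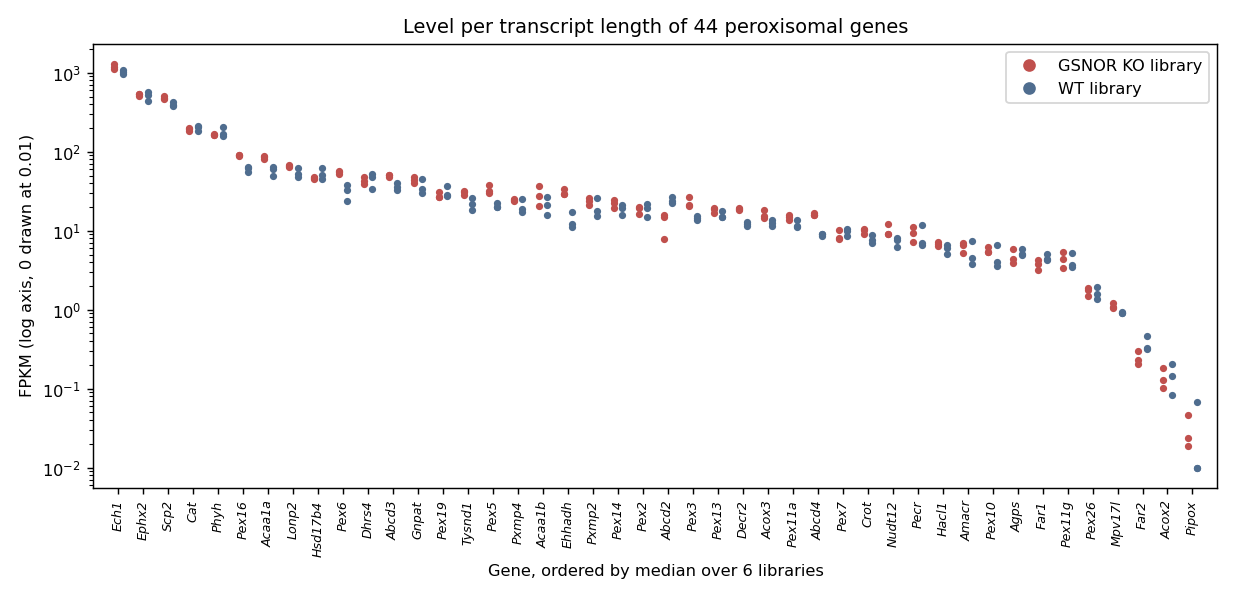
Level in FPKM (log axis) of 44 peroxisomal genes in each GSNOR KO library (red, left of each pair) and each WT library (blue, right), ordered by the median over 6 libraries. Levels run from Ech1 at 1098 FPKM to Pipox at 0.0211 FPKM, and the gaps between the groups are small beside the range between genes.

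The upstream sequences of 3 genes that rose are shown because Ehhadh and Acaa1a catalyse successive steps of one cycle and Pex6 had the largest fold change among the peroxins. Each is the 250 bases before the transcription start in RefSeq (build GRCm38.p6), 5′ to 3′ on the strand of the gene, with CG pairs in capitals. They lie at chr16:21787835-21788084, minus strand (Ehhadh), chr9:119341044-119341293, plus strand (Acaa1a), and chr17:46711226-46711475, plus strand (Pex6), and hold 12, 10 and 18 CG pairs. The start used for Acaa1a lies inside the longer GENCODE gene whose position is given further on.
Ehhadh: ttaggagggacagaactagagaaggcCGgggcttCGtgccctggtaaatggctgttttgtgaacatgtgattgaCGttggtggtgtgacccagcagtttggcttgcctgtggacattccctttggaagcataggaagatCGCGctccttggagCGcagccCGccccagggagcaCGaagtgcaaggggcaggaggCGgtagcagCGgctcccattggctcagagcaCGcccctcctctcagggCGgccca
Acaa1a: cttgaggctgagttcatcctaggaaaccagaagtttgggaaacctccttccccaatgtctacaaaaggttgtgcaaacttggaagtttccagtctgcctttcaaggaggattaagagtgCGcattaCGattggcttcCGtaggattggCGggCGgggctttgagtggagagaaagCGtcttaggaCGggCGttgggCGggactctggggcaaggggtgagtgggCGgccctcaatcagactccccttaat
Pex6: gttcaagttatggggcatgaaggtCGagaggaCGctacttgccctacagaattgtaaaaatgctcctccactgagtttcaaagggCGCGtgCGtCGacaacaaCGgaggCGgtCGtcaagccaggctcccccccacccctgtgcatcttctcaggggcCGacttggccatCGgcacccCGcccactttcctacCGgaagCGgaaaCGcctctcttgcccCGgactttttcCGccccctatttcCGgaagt

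A window from 250 bases before to 50 bases after the start was on hand for 35 of the 45 listed genes and for 7 of the 9 called ones. The DR1 element to which PPAR binds with its partner RXR, here the half-site AGGTCA repeated after 1 free base on either strand, was in 0 of the 35 and in 0.0481% of 27025 genes with a window. A looser form, GGNCA repeated after a free base and an A, was in 2 of the 35, Pex11g and Acox2, in 0 of the 7 called genes and in 0.932% of all genes. The match upstream of Pex11g, a peroxisome division gene that was not called, stands in capitals in its 250 bases (chr8:3467649-3467898, minus strand), which are shown for comparison with the genes that rose.
Pex11g: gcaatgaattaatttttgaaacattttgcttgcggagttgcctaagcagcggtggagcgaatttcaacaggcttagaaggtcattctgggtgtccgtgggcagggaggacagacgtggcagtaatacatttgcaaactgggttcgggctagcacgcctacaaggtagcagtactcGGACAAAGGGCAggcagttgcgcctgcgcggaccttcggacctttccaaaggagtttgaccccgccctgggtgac

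That half-site alone, which is also part of the DR1 element, was in 4 of the 35 genes (Phyh, Cat, Scp2 and Pex11g), in 0 of the 7 called genes and in 18.1% of all genes. The form extended by TCA in front, TCAAGGTCA, which contains that half-site, and the palindrome made of GCGCA and its reverse complement, bound by the factor NRF1, were in 0 of the 35 and in 0.466% and 1.07% of all genes. These matches describe letters in a short window, and elements farther from the start were not searched. The 42 windows of these 35 genes had, in the 250 upstream bases, a median GC content of 58.8% and 12.5 CG pairs. Over all 32851 windows the medians were 52.4% and 6. Some genes have several windows, and all windows include genes too low to be tested here. The difference is therefore not shown to be particular to peroxisomal genes.

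Of the 2 receptors that carry enzymes into peroxisomes 1 rose and 1 was not called. Pex5 (chr6:124396816-124415067, GRCm38), which binds the C-terminal import signal of most matrix enzymes, had 106, 91.9 and 105 CPM in GSNOR KO libraries, against 56.4, 60.2 and 58 CPM in WT libraries. Its libraries did not overlap, and it rose, with 101 ± 7.98 CPM in GSNOR KO and 58.2 ± 1.9 CPM in WT (SD, n = 3 each; log2 fold change 0.80, SE 0.106, edgeR adjusted p = 0.0181). Leaving out single libraries kept its log2 fold change between 0.76 and 0.86. Pex7, which binds the N-terminal signal carried by fewer enzymes, the thiolases and Agps and Phyh among them, had 13.8, 17 and 13.7 CPM in GSNOR KO libraries, against 17.4, 17 and 17.7 CPM in WT libraries. GSNOR KO replicate 2 lay below WT replicate 2 by less than the rounding of these values, and the gene was not called (log2 fold change -0.23, edgeR adjusted p = 0.27).

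Among the 6 genes of the docking complex, the ubiquitin ligase and the machinery that recycles Pex5, 1 rose and 5 were not called. Pex6 (chr17:46711463-46725541), an ATPase that helps to pull Pex5 back out of the membrane, had 271, 299 and 302 CPM in GSNOR KO libraries, against 136, 126 and 180.1 CPM in WT libraries. The WT libraries spread more than in the other genes that rose, with replicate 3 highest, and the lowest GSNOR KO library still lay above it. Pex6 rose, with 291 ± 16.9 CPM in GSNOR KO and 147 ± 28.8 CPM in WT (SD, n = 3 each; log2 fold change 0.98, SE 0.158, edgeR adjusted p = 0.0226), and its log2 fold change lay between 0.88 and 1.19 when single libraries were left out. Pex26, which anchors Pex6 to the membrane, had a log2 fold change of 0.15 with overlapping libraries.

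Pex14, a docking protein for loaded Pex5, had 67, 69.3 and 64 CPM in GSNOR KO libraries, against 53, 47.1 and 53.3 CPM in WT libraries. Its groups did not overlap, but it was not called by edgeR (log2 fold change 0.38, edgeR adjusted p = 0.0625) and was called by DESeq2 (adjusted p = 0.0146). Of its exon bases 28.3% are shared with Gm17029 on the other strand. Pex13, its partner in docking, had means of 50.7 ± 2.39 CPM in GSNOR KO and 50.5 ± 2.86 CPM in WT (SD, n = 3 each), with overlapping libraries and a log2 fold change of 0.01 that was -0.04 with library totals only. Pex2 and Pex10, which belong to the ubiquitin ligase of the membrane, had log2 fold changes of -0.14 and 0.35 with overlapping libraries.

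Of the 3 genes that insert proteins into the peroxisomal membrane 1 rose. Pex16 (chr2:92374676-92381217), which recruits Pex3 and helps to form new peroxisomes from the endoplasmic reticulum, had 107, 120.3 and 127 CPM in GSNOR KO libraries, against 72.3, 74.2 and 80 CPM in WT libraries. The groups stood well apart, and it rose, with 118 ± 10.1 CPM in GSNOR KO and 75.5 ± 4 CPM in WT (SD, n = 3 each; log2 fold change 0.65, SE 0.113, edgeR adjusted p = 0.0269, between 0.60 and 0.73 when single libraries were left out). Pex16 shares 7.15% of its exon bases with Large2 on the other strand, whose reads cannot be told apart if strand was not used in counting.

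Pex3, the membrane anchor for Pex19, had 23.2, 22.2 and 26.3 CPM in GSNOR KO libraries, against 19, 19 and 18.9 CPM in WT libraries. The WT values were nearly identical and all GSNOR KO values lay above them, without a call (log2 fold change 0.33, edgeR adjusted p = 0.1). Pex19, the carrier of newly made membrane proteins, pointed the other way, with 77 ± 4.19 CPM in GSNOR KO and 86.1 ± 7.8 CPM in WT (SD, n = 3 each), overlapping libraries and a log2 fold change of -0.16.

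Genes of peroxisome division were not called by any of edgeR, DESeq2 and limma voom. An unadjusted p under 0.05 was found in 0 of the 2, where 28.6% of all genes had such a p. With 7.04% of all genes called by edgeR, 0 of 2 does not set these genes apart. Pex11a, the member of its family that is known to respond to PPAR alpha, had 35.6, 32.4 and 36.7 CPM in GSNOR KO libraries, against 24, 35.2 and 26.9 CPM in WT libraries. WT replicate 2 lay within the GSNOR KO range. Pex11g had 11.1, 15.4 and 14.6 CPM in GSNOR KO libraries, against 10.6, 10.9 and 11.1 CPM in WT libraries, without overlap (log2 fold change 0.33, edgeR adjusted p = 0.201), and shares 41.1% of its exon bases with Gm44775 on the other strand.

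Among the 3 ABCD transporters Abcd4 rose, Abcd2 fell and Abcd3 was not called. Abcd2 (chr15:91145871-91191799), which brings very long and polyunsaturated acyl-CoAs into peroxisomes and is known to be abundant in fat, had 55.3, 27.8 and 47.4 CPM in GSNOR KO libraries, against 85.2, 117 and 85.8 CPM in WT libraries. Each GSNOR KO library lay below each WT library, with GSNOR KO replicate 2 lowest and WT replicate 2 highest. Abcd2 fell, with 43.5 ± 14.1 CPM in GSNOR KO and 96.1 ± 18.4 CPM in WT (SD, n = 3 each; log2 fold change -1.14, SE 0.261, edgeR adjusted p = 0.0466), but this call is close to the threshold. It was lost whichever library was left out (log2 fold changes between -1.35 and -0.90), with library totals only (adjusted p = 0.0542), and with no filter on low counts, while DESeq2 (adjusted p = 0.000846) and limma voom (adjusted p = 0.0484) made it. The authors' deposited table gives Abcd2 an adjusted p of 0.00402 and a log2 fold change of -1.13.

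Abcd3, the transporter for branched acyl-CoAs and bile acid precursors, had 143, 138 and 144 CPM in GSNOR KO libraries, against 101, 106 and 119 CPM in WT libraries. Its groups did not overlap, with the larger values in GSNOR KO, and it was not called by edgeR (log2 fold change 0.38, SE 0.11, edgeR adjusted p = 0.075) but was by DESeq2 (adjusted p = 0.00766). Abcd3 lies 16.6 Mb before Adh5 on chromosome 3. Per transcript length, the ratio of Abcd2 to Abcd3 was 0.31, 0.166 and 0.292 in GSNOR KO libraries and 0.65, 0.812 and 0.556 in WT libraries, so Abcd3 was the more abundant in all 6.

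Abcd4 (chr12:84601464-84617413), a relative known for moving cobalamin out of lysosomes, had 39.8, 45.3 and 42.8 CPM in GSNOR KO libraries, against 23.1, 25.6 and 24.1 CPM in WT libraries. The groups did not overlap, and Abcd4 rose, with 42.6 ± 2.79 CPM in GSNOR KO and 24.3 ± 1.26 CPM in WT (SD, n = 3 each; log2 fold change 0.81, SE 0.105, edgeR adjusted p = 0.0181, between 0.77 and 0.87 when single libraries were left out).

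**Figure D3:**
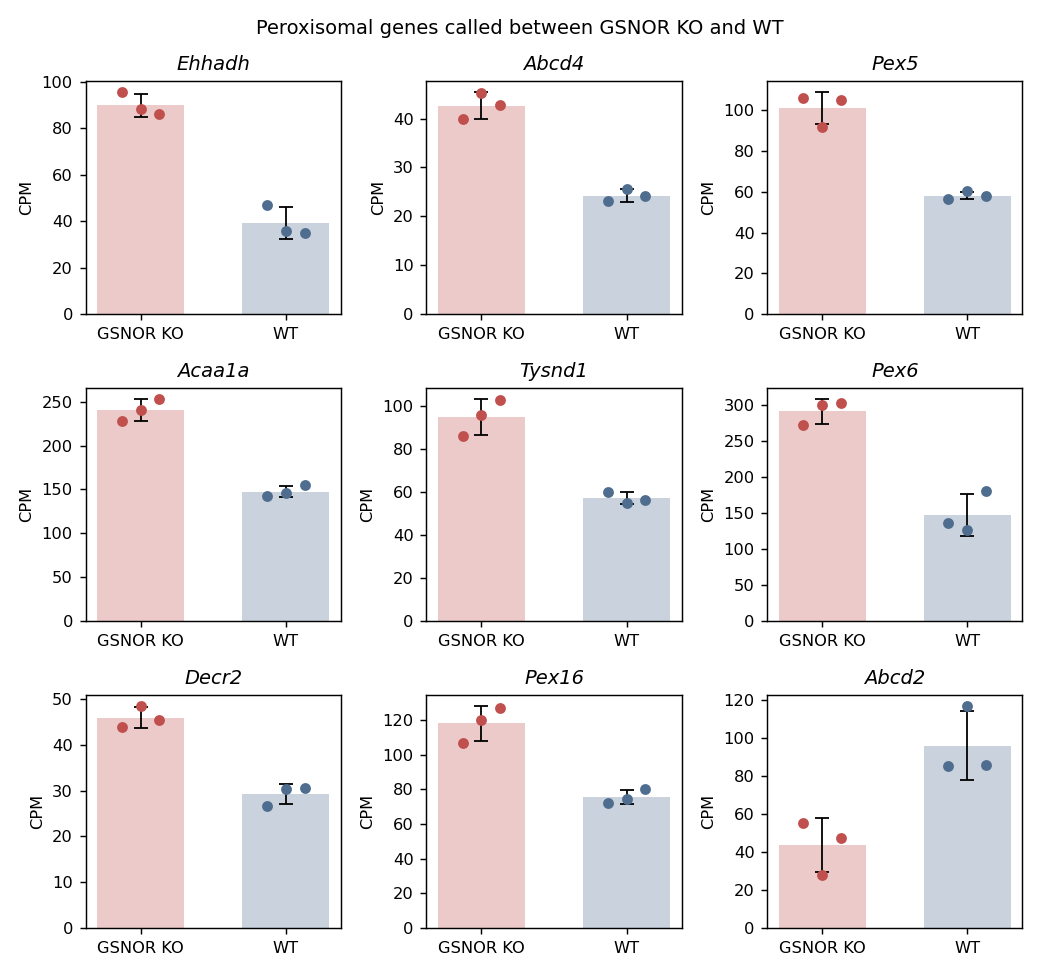
CPM (vertical axes from 0) of the 9 called peroxisomal genes in GSNOR KO (left) and WT (right), with points for libraries, bars for means and error bars for SD (n = 3 each). The groups do not overlap in any panel, and Abcd2 is the 1 gene with the lower values in GSNOR KO. The genes were picked by a test on the same counts, so the gaps are no separate evidence.

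In the beta-oxidation cycle 2 of 7 tested enzymes rose, 0 fell and 5 were not called. Ehhadh (chr16:21761287-21787807), the bifunctional enzyme of the classic, PPAR alpha-responsive branch, had 95.6, 88.3 and 86.1 CPM in GSNOR KO libraries, against 47.1, 35.7 and 35 CPM in WT libraries. It had the largest fold change among the 42 tested genes, 2.29-fold, with 90 ± 4.97 CPM in GSNOR KO and 39.3 ± 6.76 CPM in WT (SD, n = 3 each; log2 fold change 1.20, SE 0.141, edgeR adjusted p = 0.018). WT replicate 1 was the highest of the WT libraries, and without it the log2 fold change was the highest of the leave-outs, 1.38, with 1.13 as the lowest.

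Hsd17b4, the other bifunctional enzyme, which handles branched chains and bile acid precursors, had 141, 145 and 149 CPM in GSNOR KO libraries, against 179, 154 and 158 CPM in WT libraries. Its GSNOR KO libraries lay below its WT libraries by a small margin, and it was not called (log2 fold change -0.18, edgeR adjusted p = 0.326). Whether the fold changes of the 2 bifunctional enzymes differ from each other was not tested. Acox3, an oxidase for branched chains, had 41.9, 53 and 45.6 CPM in GSNOR KO libraries, against 34, 35.3 and 41 CPM in WT libraries, without overlap and without a call (log2 fold change 0.35, edgeR adjusted p = 0.132). Acox2 was too low to be tested, with 0.225, 0.494 and 0.36 CPM in GSNOR KO libraries and 0.35, 0.23 and 0.549 CPM in WT libraries.

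Among the thiolases, Acaa1a (chr9:119339676-119350299) had 228, 241 and 253 CPM in GSNOR KO libraries, against 142, 146 and 155 CPM in WT libraries. It rose, with 241 ± 12.4 CPM in GSNOR KO and 148 ± 6.29 CPM in WT (SD, n = 3 each; log2 fold change 0.71, SE 0.107, edgeR adjusted p = 0.0207, between 0.67 and 0.78 when single libraries were left out). Its close copy Acaa1b had 72.9, 45.7 and 64.3 CPM in GSNOR KO libraries, against 48.3, 35.2 and 42.3 CPM in WT libraries, overlapping through GSNOR KO replicate 2 (log2 fold change 0.54, edgeR adjusted p = 0.124). In the annotated transcripts 26.7% of the 50-base stretches of Acaa1a also occur in Acaa1b, so the split of reads between the copies is uncertain. Their CPM summed to 301, 287 and 317 in GSNOR KO libraries and to 191, 181 and 197 in WT libraries. The sum does not depend on that split. It may depend on whether shared reads were dropped or counted for both copies, which is not given. A further 6.57% of the exon bases of Acaa1a are shared with Myd88 on the other strand.

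Scp2, the thiolase for branched chains, had 541, 509 and 511 CPM in GSNOR KO libraries, against 431, 454 and 481 CPM in WT libraries. The groups were separate but close, and it was not called (log2 fold change 0.19, edgeR adjusted p = 0.289). Amacr, the racemase that prepares branched acyl-CoAs for oxidation, had a log2 fold change of 0.32 with overlapping libraries.

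Of 4 genes for unsaturated or shortened chains 1 rose. Decr2 (chr17:26081208-26090337), the peroxisomal dienoyl-CoA reductase, had 44, 48.6 and 45.4 CPM in GSNOR KO libraries, against 26.7, 30.4 and 30.6 CPM in WT libraries. It rose, with 46 ± 2.39 CPM in GSNOR KO and 29.2 ± 2.17 CPM in WT (SD, n = 3 each; log2 fold change 0.65, SE 0.107, edgeR adjusted p = 0.0226, between 0.62 and 0.73 when single libraries were left out). Ech1, which repositions double bonds, had 1173, 1156 and 1127 CPM in GSNOR KO libraries, against 1029, 1033 and 1062 CPM in WT libraries. These narrow ranges did not overlap, and the difference was small and not called (log2 fold change 0.15, edgeR adjusted p = 0.405). Crot, which attaches carnitine to shortened chains so that they can leave, and Pecr, an enoyl-CoA reductase, had log2 fold changes of 0.25 and 0.15 with overlapping libraries.

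The genes of alpha-oxidation, which removes one carbon from phytanic acid and like branched acids, were not called by any of edgeR, DESeq2 and limma voom, and 0 of the 2 had an unadjusted p under 0.05. Over all genes edgeR called 7.04% and 28.6% had such a p, so 0 of 2 does not set these genes apart. Phyh, the hydroxylase, had 215, 226 and 218 CPM in GSNOR KO libraries, against 261, 236 and 229 CPM in WT libraries. Hacl1, the lyase, had 18.2, 19.9 and 18.3 CPM in GSNOR KO libraries, against 16.6, 15 and 17 CPM in WT libraries. The GSNOR KO libraries lay below the WT libraries for Phyh (log2 fold change -0.14, edgeR adjusted p = 0.437) and above them for Hacl1 (log2 fold change 0.21, edgeR adjusted p = 0.249), by margins of a few CPM.

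Ether lipid synthesis begins in peroxisomes, where Gnpat acylates dihydroxyacetone phosphate, Agps exchanges the acyl chain for an alkyl chain, and Far1 or Far2 supply the fatty alcohol. None of the 4 genes was called by any of edgeR, DESeq2 and limma voom. An unadjusted p under 0.05 was found for 1 of them, Far1. Over all genes edgeR called 7.04% and 28.6% had such a p, so these counts do not set the 4 genes apart. Far1 had 14.2, 12.2 and 15.1 CPM in GSNOR KO libraries, against 16.9, 18.1 and 20.4 CPM in WT libraries, with the GSNOR KO libraries lower throughout (log2 fold change -0.42, SE 0.133, edgeR adjusted p = 0.0928). Agps had 23.7, 19.2 and 21.1 CPM in GSNOR KO libraries, against 25.9, 25.5 and 24.5 CPM in WT libraries, also without overlap (log2 fold change -0.25, edgeR adjusted p = 0.21). Far2 was barely detected, with 0.63, 0.942 and 0.674 CPM in GSNOR KO libraries, against 0.963, 1.15 and 1.51 CPM in WT libraries (log2 fold change -0.68, edgeR adjusted p = 0.266).

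Gnpat pointed the other way, with 143, 167 and 140.4 CPM in GSNOR KO libraries, against 139.6, 113 and 112 CPM in WT libraries. Its lowest GSNOR KO library lay just above WT replicate 1, the highest of the WT libraries (log2 fold change 0.31, edgeR adjusted p = 0.192). The median over the 4 genes was -0.33. Without WT replicate 1, Far1 was called lower and Gnpat higher.

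The membrane proteins of the Pxmp2 family were all above 0 in log2 fold change. Of the 3 tested, 0 were called by edgeR, 0 by limma voom and 1, Pxmp4, by DESeq2. An unadjusted p under 0.05 was found for 1 of them. Over all genes edgeR called 7.04%, DESeq2 called 15.4% and 28.6% had such a p, so these counts do not set them apart. Pxmp4 had 49.4, 56.7 and 55.7 CPM in GSNOR KO libraries, against 42.1, 39.5 and 34.9 CPM in WT libraries. The groups did not overlap, and its adjusted p lay just above the threshold (log2 fold change 0.47, SE 0.116, edgeR adjusted p = 0.0537). Mpv17l had 3.15, 3.81 and 3.19 CPM in GSNOR KO libraries, against 2.58, 3.08 and 2.93 CPM in WT libraries (log2 fold change 0.24, edgeR adjusted p = 0.514), and Pxmp2, which forms a channel for small solutes, had a log2 fold change of 0.35 with overlapping libraries.

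Of the other matrix enzymes 0 of 4 tested were called by any of edgeR, DESeq2 and limma voom. An unadjusted p under 0.05 was found in 0 of them. Over all genes edgeR called 7.04% and 28.6% had such a p, so 0 of 4 does not set these genes apart. Cat had 326, 299 and 327 CPM in GSNOR KO libraries, against 355, 363 and 376 CPM in WT libraries, a little lower in each GSNOR KO library (log2 fold change -0.20, edgeR adjusted p = 0.258). Ephx2 (log2 fold change -0.08), Dhrs4, a carbonyl reductase (log2 fold change 0.03, and -0.02 with library totals only), and Nudt12, which hydrolyses NADH (log2 fold change 0.22), had overlapping libraries. Pipox, the pipecolate oxidase, was too low to be tested, with at most 3 counts in any library.

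Of the 2 proteases that act inside the organelle 1 rose and 1 was not called. Tysnd1 (chr10:61695514-61702773), which trims several beta-oxidation enzymes after their import, had 86.2, 95.9 and 103 CPM in GSNOR KO libraries, against 60.3, 55 and 56.4 CPM in WT libraries. It rose without overlap, with 95 ± 8.43 CPM in GSNOR KO and 57.2 ± 2.75 CPM in WT (SD, n = 3 each; log2 fold change 0.73, SE 0.111, edgeR adjusted p = 0.0207, between 0.67 and 0.80 when single libraries were left out). Lonp2, the Lon protease of peroxisomes, had a log2 fold change of 0.11 with overlapping libraries.

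Across libraries, the 8 genes that rose had a median of 0.67, 0.74 and 0.83 in GSNOR KO replicates 1 to 3 and of -0.06, -0.02 and 0.03 in WT replicates 1 to 3, in log2(CPM + 0.1) about each gene's WT mean. The 8 genes were picked by a test on the same libraries, so their medians are no separate evidence. Over all 42 genes the medians were 0.17, 0.27 and 0.20 in GSNOR KO and 0.02, -0.03 and 0.01 in WT. The highest library was GSNOR KO replicate 2 for 15 genes, GSNOR KO replicate 3 for 9 and GSNOR KO replicate 1 for 5. It was WT replicate 1 for 7 genes, WT replicate 3 for 4 and WT replicate 2 for 2. Neither these counts nor the medians by library were computed over all tested genes, so whether they concern peroxisomal genes was not tested.

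**Figure D4:**
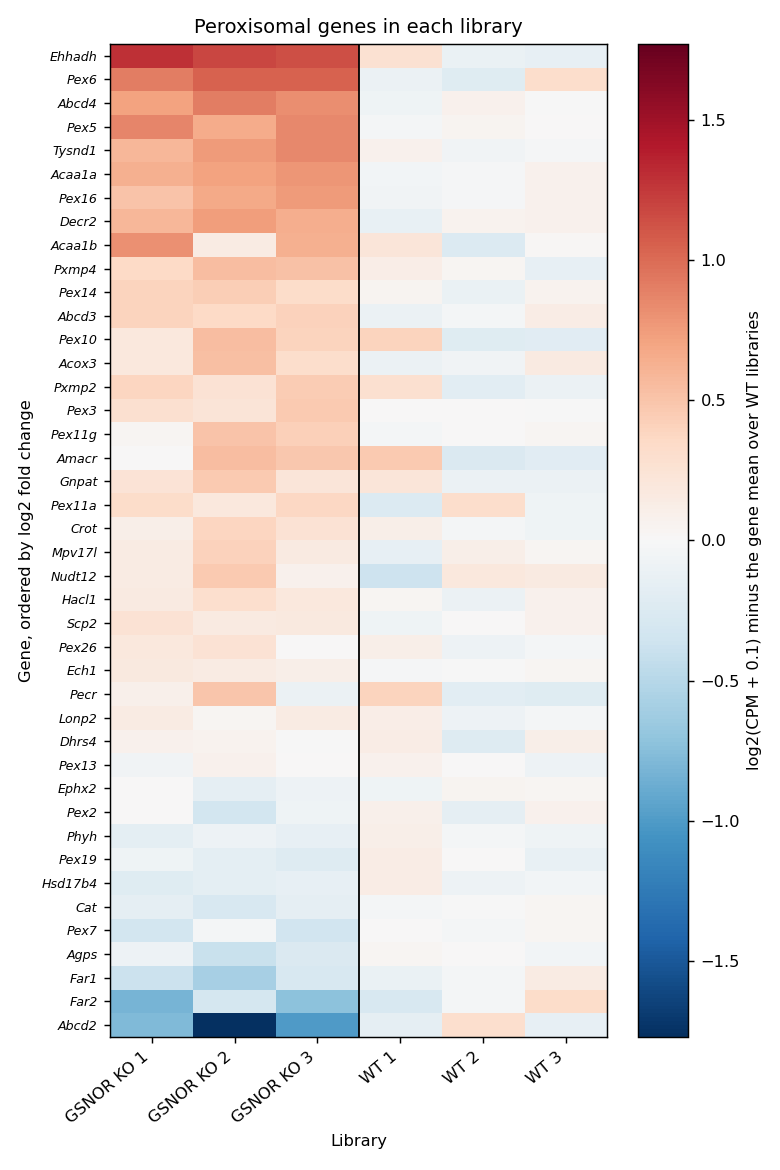
Log2(CPM + 0.1) of 42 tested peroxisomal genes in 3 GSNOR KO libraries (left) and 3 WT libraries (right), each minus the gene's mean over WT libraries, with genes ordered by fold change from Ehhadh at the top to Abcd2 at the bottom. The top 8 rows are red in all 3 GSNOR KO libraries, and the Abcd2 row is blue in all 3. These rows are the called genes, picked by a test on the same counts, so their colours are no separate evidence.

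Further peroxisomal genes outside the list, also chosen with earlier results of these data known, were looked up. Of 43 such genes tested 7 rose, 0 fell and 36 were not called by edgeR, where 7.04% of all genes were called, and their median log2 fold change was 0.25. Acot4, which hydrolyses dicarboxylic acyl-CoAs, had 19.3, 18.8 and 17.8 CPM in GSNOR KO libraries, against 6.39, 6.16 and 6.4 CPM in WT libraries (log2 fold change 1.56, SE 0.117, edgeR adjusted p = 0.00602). Slc27a2, which imports and activates very long fatty acids, had 106, 145 and 122 CPM in GSNOR KO libraries, against 59.2, 43.8 and 49.5 CPM in WT libraries (log2 fold change 1.29, SE 0.165, edgeR adjusted p = 0.0181). Both groups of values were separate by a wide margin.

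Nudt7, which hydrolyses CoA in peroxisomes, rose, with 76.4 ± 9.04 CPM in GSNOR KO and 48 ± 6.13 CPM in WT (SD, n = 3 each; log2 fold change 0.67, edgeR adjusted p = 0.0367). Dhrs7b, the acyl-dihydroxyacetone phosphate reductase that follows Agps in ether lipid synthesis, also rose, with 132 ± 6.66 CPM in GSNOR KO and 92.9 ± 3.14 CPM in WT (SD, n = 3 each; log2 fold change 0.50, edgeR adjusted p = 0.0357). Its call was lost with library totals only (edgeR adjusted p = 0.0657). Pmvk, of the mevalonate pathway, rose (log2 fold change 0.84, edgeR adjusted p = 0.0189). Slc27a4, a fatty acid transporter, rose (log2 fold change 0.48, edgeR adjusted p = 0.0484), but was not called with library totals only (edgeR adjusted p = 0.0755) or by limma voom (adjusted p = 0.0563). Acot3, a neighbour of Acot4 with 2 counts in each WT library and 28, 28 and 23 counts in GSNOR KO libraries, was also called (edgeR adjusted p = 0.0181). All 7 calls were kept by edgeR without WT replicate 1, those of Acot4, Slc27a2, Pmvk and Acot3 also without WT replicate 3, that of Acot4 also without WT replicate 2, and none without any one of the GSNOR KO replicates.

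The 4 uncalled genes with the smallest p were Prdx5, an antioxidant enzyme, Acot8, a thioesterase, Crat, the carnitine acetyltransferase, and Acbd4, a tether to the endoplasmic reticulum. Their log2 fold changes were 0.43, 0.56, 0.44 and 0.57, with edgeR adjusted p of 0.057, 0.0596, 0.0602 and 0.0643.

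Fission genes shared with mitochondria were not called (0 of 5 by edgeR, DESeq2 or limma voom), with a median of 0.04. An unadjusted p under 0.05 was found for 1 of the 5. Over all genes edgeR called 7.04% and 28.6% had such a p, so these counts do not set them apart. Mff, a receptor for the fission motor, had 36.5, 39.3 and 37.6 CPM in GSNOR KO libraries, against 54.9, 46.8 and 43.8 CPM in WT libraries (log2 fold change -0.36, edgeR adjusted p = 0.0975), and Mief1, Mief2 and Dnm1l, the motor itself, had log2 fold changes of 0.23, 0.22 and -0.15. Of 10 genes linked to the removal of peroxisomes by autophagy 1 rose (10%, where 7.04% of all genes were called), with a median of -0.07 over the 10. The gene that rose was Tex264, a receptor known mainly for the endoplasmic reticulum (log2 fold change 0.46, SE 0.0991, edgeR adjusted p = 0.0401). Its call was lost with library totals only (edgeR adjusted p = 0.0764) and in every leave-out other than that of WT replicate 1. The receptors and adaptors Bnip3, Optn, Nbr1 and Sqstm1 had log2 fold changes of -0.37, 0.21, -0.15 and -0.29.

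Of 12 regulators and partners of PPAR 1 rose (8.33%, where 7.04% of all genes were called). This was Ppargc1b, a coactivator, with 47.5, 80 and 65.7 CPM in GSNOR KO libraries, against 30, 28.3 and 25.2 CPM in WT libraries (log2 fold change 1.21, SE 0.193, edgeR adjusted p = 0.0226). Among the leave-outs its call was kept without WT replicate 1 or 3 and lost in the other 4. Ppara, which encodes PPAR alpha, had 205, 218 and 196 CPM in GSNOR KO libraries, against 94.6, 138 and 183 CPM in WT libraries. Its groups did not overlap, with WT spreading widely, and it was not called (log2 fold change 0.57, edgeR adjusted p = 0.145). Rxrb and Rxra, which encode partners of PPAR, had log2 fold changes of 0.40 and -0.28. Pparg, which encodes PPAR gamma, and the coactivator Ppargc1a had -0.18 and -0.25.

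Markers of other cells differed between the groups in these libraries. Over all tested genes edgeR called 3.9% higher and 3.14% lower in GSNOR KO. The 17 skeletal muscle genes found of 20 took 0.679 to 1.19% of the counts in GSNOR KO and 1.67 to 4.41% in WT. WT replicate 1 was highest, and 0 of the genes were at 0 counts in any library. Among the 17 genes 6 fell (35.3%), and all 17 lay below 0 in log2 fold change. The 15 macrophage genes summed to 139.6 to 189 CPM in GSNOR KO and to 311 to 740.1 CPM in WT. WT replicate 1 was again highest. Among the 15 genes 7 fell (46.7%), and all 15 lay below 0 in log2 fold change. The 11 brown and beige adipocyte genes summed to 5763 to 7063 CPM in GSNOR KO and to 3152 to 4844 CPM in WT, with WT replicate 1 lowest. Of these 11 genes 4, Cidea, Elovl3, Kcnk3 and Slc36a2, rose and 7 were not called (36.4% called). The log2 fold change lay above 0 in 9 of them and below 0 in 2.

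Of the other marker lists, the 11 progenitor and fibroblast genes summed to 536 to 628 CPM in GSNOR KO and to 820.2 to 996 CPM in WT. Of these 11 genes 5, Pdgfra, Dcn, Lum, Col1a2 and Thy1, fell (45.5%, where 3.14% of all genes fell and 7.04% were called). All 11 lay below 0 in log2 fold change. The 8 endothelial genes summed to 2182 to 2675 CPM in GSNOR KO and to 1185 to 2145 CPM in WT, and the 5 red blood cell genes to 1178 to 1278 CPM in GSNOR KO and to 887 to 1430 CPM in WT, with 0 called in either list. Lymphocyte genes reached 4.76 to 8.45 CPM in GSNOR KO and 8.41 to 49.2 CPM in WT, hepatocyte genes 17.5 to 62.9 CPM in GSNOR KO and 24.6 to 36.8 CPM in WT, and epithelial genes 0.449 to 3.82 CPM in GSNOR KO and 0.735 to 0.823 CPM in WT. Of the 2 hepatocyte genes tested 1, Alb, fell, and 0 lymphocyte or epithelial genes were called. The part of these differences in the peroxisomal results was not tested.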

How the data were processed

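Poly-T beads enriched messenger RNA of snap-frozen inguinal white adipose tissue, which was sequenced from random-primed Illumina libraries, per the labels' protocols. The authors deposited 1 table with raw counts and FPKM per library, per the file headers, and the genome build was GRCm38 (mm10), per the submitters' processing notes. Aligner, counter and strand setting were not given in the sources used here. Reads of overlapping and near-identical genes may therefore be split or merged. The deposited FPKM served only to compare levels between genes. The table also holds the authors' DESeq adjusted p and log2 fold change, per the file headers. A version is not given.

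Counts were tested with edgeR 4.0.16 in R 4.3.3 (filterByExpr, TMM, robust quasi-likelihood F test, Benjamini-Hochberg over 13694 genes). Each SE was derived from the log2 fold change and the square root of its F statistic. The TMM factors were 0.93 to 1.08. The procedure was tested on simulated data. With 3 counts as a floor, statements on low genes cover counting error only. An exact permutation test of 3 against 3 libraries cannot go below 0.10, so single genes were judged by the fit across genes. Alternatives were RLE factors, library totals, other filters, DESeq2 1.42.0, limma 3.58.1 voom, no robust dispersion, a replicate block and leaving out each library. Gene positions are from GENCODE M21 (GRCm38) and promoters from RefSeq (GRCm38.p6). The protein sequence features planned were not examined. All listed genes are named, with values per library for called genes and for those without overlap. Of the further lists, genes called and the 4 others with the smallest p are named, except where a result is not reported here. Pparg, Ppargc1a and the extra motifs were chosen after values were seen. The genes and lists were chosen with earlier results of these data known.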

Additional observations from a re-analysis of the deposited data

How the results depend on the processing

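Of the 9 called genes, the 8 that rose kept their call with RLE factors, library totals, both other filters, DESeq2, limma voom, no robust dispersion and the replicate block, and Abcd2 was no longer called with library totals only, with no filter or with the replicate block (0 genes lower in each). The replicate block gave 884 called genes (376 higher and 508 lower) and a median of 0.24, and changed no other call among these genes. Outside the list it ended the calls of Dhrs7b (adjusted p = 0.0735), Slc27a4 (0.075), Nudt7 (0.0541) and Tex264 (0.0797), all from edgeR. Same-numbered libraries did not deviate together in every pair (correlations of 0.15, 0.12 and -0.05 for numbers 1, 2 and 3), so the numbers are not taken as pairs. Over all genes DESeq2 called 2300 (1120 higher and 1180 lower), in place of 964 (534 and 430), limma voom called 266 lower, and library totals gave 314 higher. The median over the 42 genes was 0.19 with library totals only.

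Leaving out 1 library gave 3 to 2844 called genes (1 to 1630 higher, 2 to 1214 lower) and 0 to 17 called peroxisomal genes (0 to 16 higher, 0 to 1 lower), with a median of 0.20 to 0.29. The direction turned only for genes near 0: Pex13 (-0.04 with library totals, -0.02 to 0.08 in the leave-outs, lowest without GSNOR KO replicate 2), Dhrs4 (-0.02 with library totals, -0.07 without WT replicate 2) and Pecr (-0.04 to 0.41, lowest without GSNOR KO replicate 2). The cause of these changes was not tested, beyond the smaller number of libraries in the leave-outs. With 3 libraries a group, a gene that was not called is not shown to be unchanged, and Far2, Mpv17l, Acox2 and Pipox are limited by their low counts.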
